A study of Mus musculus with 6 samples.

Results

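The genes examined encode the elastic fiber and its microfibrils, namely *Eln*, *Fbn1*, *Fbln1*, *Fbln2*, *Fbln5*, *Mfap4*, *Mfap5*, *Emilin1*, *Ltbp4*, and *Efemp1*. These 10 genes were taken by gene name from the 56923 genes listed, and all 10 passed edgeR's filter on low counts, which left 17212 genes tested. RNA came from the PBS-perfused left ventricles (LVs) of mice at 12 weeks of age, sequenced as 1 library per mouse. 3 mice carried wild-type *Lztr1* (WT), and 3 were heterozygous for the R409C mutation (*Lztr1* R409C/+), which is called Mutant in the sample labels. LZTR1 is an adaptor that directs RAS proteins to degradation, and the knock-in line was made with CRISPR/Cas9 as a mouse model of Noonan syndrome and backcrossed to C57BL/6J. The mutation was in every cell of the mouse, so that the LV measurement does not separate effects within the heart from those outside it. Males were used by the study to assess phenotypes of the mutation, and no sex is given in the labels of these samples. The comparison asked whether the transcripts of the elastic matrix differed between the genotypes in the LV.

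Elastic fibers consist of a core of crosslinked elastin in a mantle of fibrillin microfibrils, and they give vessel walls, valves, and the lining of the heart their recoil. Fibulins, microfibril-associated proteins, EMILINs, and latent TGF-β binding proteins guide tropoelastin onto the microfibrils, where lysyl oxidases crosslink it. Fibroblasts and vascular smooth muscle cells are known as the main sources of these proteins in the heart.

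Total counts ranged from 66130887 to 72641124 per mouse. The share of counts from mitochondrially encoded genes was smallest in WT replicate 3, at 13.8% (Wilson interval 13.8% to 13.9%, with 95% confidence and for counting error only). It was largest in *Lztr1* R409C/+ replicate 1, at 45.4%, and lay between 29.7% and 37.3% in the other 4 mice. Values are given as CPM, read counts scaled to a common library total after TMM normalization, and 3 counts corresponded to at most 0.0541 CPM. Cardiomyocyte markers summed to between 36866 and 40983 CPM in WT and between 27627 and 39478 CPM in *Lztr1* R409C/+ mice, with overlap. Of these 7 genes, 2 had a log2 fold change above 0 and 5 below 0 (median -0.19), beside 51.4% of all tested genes above 0. For 1 of them every mutant was below every WT mouse, as for 7.23% of all genes. Of 5 atrial markers, *Myl7* and *Sln* were at or near 0, with at most 0.262 CPM for *Myl7*, and *Myl4* was at 0.471 CPM in WT and 0.491 CPM in *Lztr1* R409C/+ mice on average. *Nppa*, which stressed ventricles also express, was at 54.5 and 78.6 CPM, and *Tbx5*, which ventricles also express, at 16.9 and 16.04 CPM, with overlap for both genes. *Lztr1* itself was at 23.5 ± 1.11 CPM (SD, n = 3) in WT and 25.7 ± 2.03 CPM (SD, n = 3) in *Lztr1* R409C/+ mice. The values overlapped. Counts per gene do not show an amino acid substitution, so this level does not check the genotype.

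None of the 10 genes passed a false discovery rate of 0.05 in either direction by the quasi-likelihood (QL) F-test of edgeR, whose p-values were adjusted over all genes by the Benjamini-Hochberg method. Over all genes tested, 0.0349% were called higher and 0.00581% lower. 5 members had a log2 fold change above 0 and 5 below 0, with a median of 0.03, and 51.4% of all tested genes lay above 0, with a median of 0.01. At an unadjusted p under 0.05, 3 members were higher in *Lztr1* R409C/+ mice (*Mfap4*, *Mfap5*, and *Emilin1*) and 0 were lower, beside 5.77% and 2.86% of all genes. *Mfap4* and *Mfap5* were also the members with every *Lztr1* R409C/+ mouse above every WT mouse, which held for 8.30% of all genes. The reverse, every *Lztr1* R409C/+ mouse below every WT mouse, held for 0 members and for 7.23% of all genes. A log2 fold change above 0.5 was estimated for 3 of the 10 members and for 14.0% of all genes. DESeq2's Wald test called 1 member higher, *Mfap4*, and 0 lower, where it called 0.961% of all genes higher and 0.101% lower. The exact test of edgeR called 0 members in either direction, beside 0.738% of all genes higher and 0.0755% lower.

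**Figure D1:**
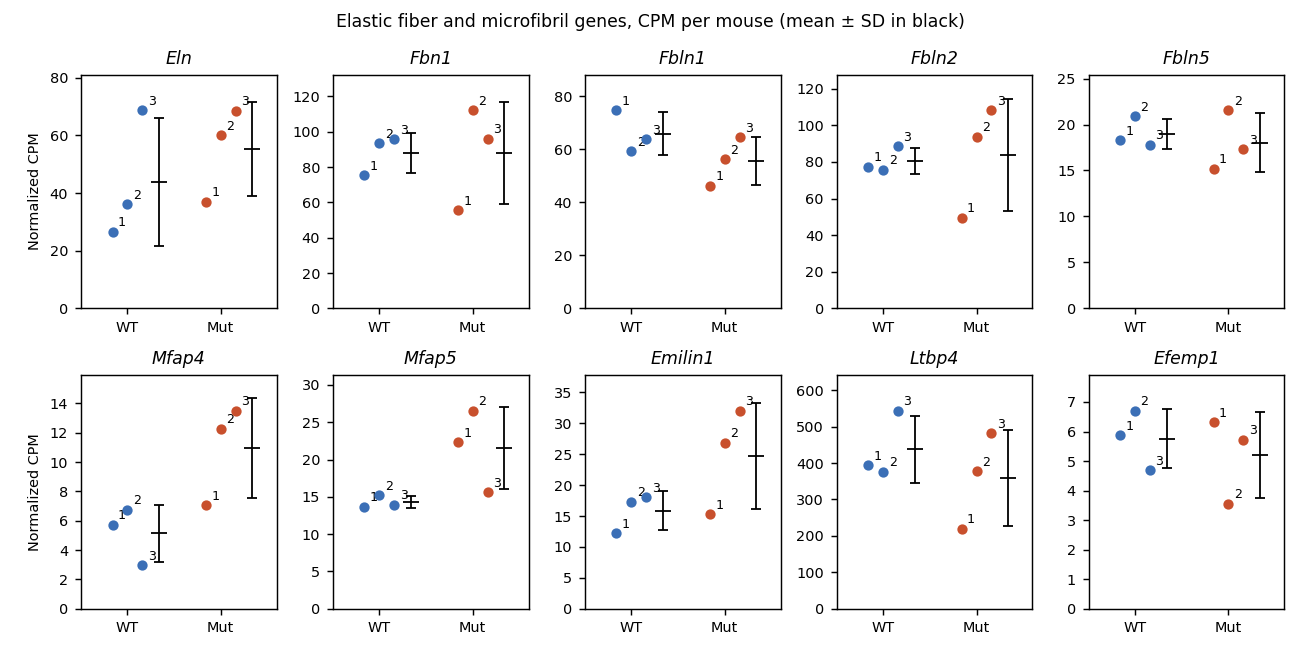
CPM of each of the 10 genes (vertical axis, linear from 0) in 3 WT and 3 *Lztr1* R409C/+ mice (Mut), with points numbered by replicate and the mean ± SD in black. The genotypes are separate for *Mfap4* and *Mfap5* and overlap for the other 8 genes.

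Promoter windows were examined for what the genes share in sequence. RefSeq windows of 300 bases, from 250 before to 50 after a transcript start, were found for 7 of the 10 genes, and each was matched to GRCm39. *Eln*, *Mfap4*, and *Mfap5* had no entry. Windows of 3 genes are shown because these genes span the differences measured, with *Emilin1* among the higher values, *Fbn1* near 0, and *Ltbp4* the lowest. Capitals mark any of the letters searched on both strands, with overlapping copies counted separately. The letters were GGGCGG for the GC box and TATAAA for the TATA box. The AP-1 site was searched as TGANTCA. A short SMAD-binding element was searched as CAGAC.
*Emilin1*, chr5:31070880-31071179, plus strand:
Emilin1: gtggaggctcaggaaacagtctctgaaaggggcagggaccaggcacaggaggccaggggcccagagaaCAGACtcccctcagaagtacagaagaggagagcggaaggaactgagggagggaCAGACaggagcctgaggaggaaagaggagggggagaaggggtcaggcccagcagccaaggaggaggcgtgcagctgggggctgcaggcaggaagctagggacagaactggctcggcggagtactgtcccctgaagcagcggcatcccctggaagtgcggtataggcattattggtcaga
*Fbn1*, chr2:125348309-125348608, minus strand:
Fbn1: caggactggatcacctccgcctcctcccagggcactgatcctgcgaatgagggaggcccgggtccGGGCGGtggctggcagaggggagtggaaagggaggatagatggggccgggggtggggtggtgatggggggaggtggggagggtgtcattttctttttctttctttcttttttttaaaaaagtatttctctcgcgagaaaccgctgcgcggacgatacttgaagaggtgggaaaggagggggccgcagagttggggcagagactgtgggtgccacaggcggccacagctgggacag
*Ltbp4*, chr7:27033024-27033323, minus strand:
Ltbp4: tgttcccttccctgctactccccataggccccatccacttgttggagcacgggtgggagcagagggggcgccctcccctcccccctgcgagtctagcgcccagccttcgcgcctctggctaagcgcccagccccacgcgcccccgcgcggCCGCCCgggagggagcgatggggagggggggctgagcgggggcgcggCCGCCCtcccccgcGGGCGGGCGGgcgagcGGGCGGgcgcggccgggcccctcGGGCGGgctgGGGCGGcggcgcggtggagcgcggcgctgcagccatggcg
The start behind the *Emilin1* window lies 384 bases, and that behind the *Fbn1* window 1555 bases, inside the gene as GENCODE gives its canonical transcript. Among windows not shown, that of *Fbln2* had its start 309 bases and 1 of *Fbln5* 686 bases inside the gene by the same measure. The GC box was in at least 1 window of 6 of the 7 genes, all but *Emilin1*, beside 38.2% of the 27025 genes with a window. Some genes had several windows. Counted by window, it was in 8 of the 11 windows of the members, beside 35.7% of all 32851 windows. *Ltbp4* had 3 windows, and the one shown, whose start lies nearest to that of the canonical transcript, held 7 copies and was 80.3% G and C, above 99.1% of all windows, where the median was 52.7%. Its other windows held 9 copies at 81.3% and 3 copies at 64.3% G and C. TATAAA was in none of the 7 genes, beside 15.7% of all genes. The AP-1 letters were in 1 of the 7, *Efemp1*, beside 8.97% of all genes. CAGAC was in 4 of the 7, among them *Emilin1* with 2 copies, beside 53.2% of all genes. These are matches of letters, not binding sites, and no test was made.

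*Eln* (ENSMUSG00000029675.13, chromosome 5 of GRCm39, 134731445 to 134776322) encodes tropoelastin, the soluble precursor of the fiber core. In replicate order, the WT mice had 26.5, 36.1, and 68.7 CPM, and the *Lztr1* R409C/+ mice had 37.0, 60.1, and 68.5 CPM. The highest and the lowest values both belonged to WT mice, and the spread was wide in both groups. Means were 43.8 ± 22.1 CPM in WT and 55.2 ± 16.3 CPM in mutant mice (SD, n = 3 for both). The log2 fold change was 0.33 with a 95% interval from -0.44 to 1.10 (QL test, adjusted p = 0.831). Of all the members, *Eln* varied most between WT mice, with a coefficient of variation of 50.5%. An antisense lncRNA gene, *Gm30003*, shares 5.12% of its exonic bases and had at most 8 counts per mouse. WT replicate 3, the mouse with the smallest mitochondrial share, had the highest value. With 1 mouse omitted at a time, the log2 fold change lay between 0.07 without WT replicate 1 and 0.82 without WT replicate 3 (QL test, adjusted p = 0.986 and 0.458). It was also lower than with all mice without WT replicate 2 (0.20), *Lztr1* R409C/+ replicate 3 (0.15), or *Lztr1* R409C/+ replicate 2 (0.26), and was 0.54 without *Lztr1* R409C/+ replicate 1. Without both WT replicate 3 and *Lztr1* R409C/+ replicate 1, a choice made after the values were seen, it was 1.04 (QL test, adjusted p = 0.244). That omission takes out the highest WT mouse and the lowest mutant for *Eln*.

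*Fbn1* (ENSMUSG00000027204.14, chromosome 2, 125142514 to 125349913) encodes fibrillin-1, the backbone of the microfibril and the gene of Marfan syndrome. Its values were 75.3, 93.4, and 95.8 CPM in WT and 55.7, 112.2, and 96.1 CPM in *Lztr1* R409C/+ mice. The mutants held the lowest and the highest value, so that the means were nearly the same, at 88.2 ± 11.2 and 88.0 ± 29.1 CPM (SD, n = 3 in each group). The 95% interval of the log2 fold change ran from -0.50 to 0.50 around an estimate of -0.0023, and its sign changed with the settings. An antisense lncRNA gene, *Gm9913*, shares 20.1% of the exonic bases of *Fbn1* and had at most 13 counts per mouse.

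*Mfap4* (ENSMUSG00000042436.13, chromosome 11, 61376212 to 61379727) encodes a microfibril-associated glycoprotein that binds tropoelastin and fibrillin. It was at 5.74, 6.74, and 2.99 CPM in WT and at 7.06, 12.3, and 13.5 CPM in *Lztr1* R409C/+ mice. Every mutant was above every WT mouse, though *Lztr1* R409C/+ replicate 1 was only slightly above WT replicate 2. The means of 5.16 ± 1.94 and 10.96 ± 3.43 CPM (SD, n = 3 in each group) gave a fold change of 2.13, the largest of the 10 genes. On the log2 scale this was 1.09 (standard error 0.31, 95% interval 0.41 to 1.77). The QL test of edgeR gave an unadjusted p = 0.00426 and an adjusted p = 0.317, and the two-sided exact permutation test gave p = 0.1, the smallest that 3 mice against 3 allow. DESeq2's Wald test gave an adjusted p of 0.04996, and the alternatives reached up to 0.581. The log2 fold change lay between 0.81 and 1.33 in the fits that each omitted 1 mouse. *Mapk7* lies on the opposite strand and shares 3.83% of the exonic bases of *Mfap4*, so that reads there may not be told apart, as no use of strand in the counting is stated. *Mapk7* had between 203 and 540 counts per mouse and *Mfap4* between 283 and 980.

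*Mfap5* (ENSMUSG00000030116.15, chromosome 6, 122470878 to 122508875) encodes a further microfibril-associated glycoprotein, which binds fibrillin. Its values were 13.7, 15.2, and 13.9 CPM in WT and 22.3, 26.6, and 15.7 CPM in *Lztr1* R409C/+ mice. WT mice lay close together, with a coefficient of variation of 5.74%, the smallest of the members in either group, and *Lztr1* R409C/+ replicate 3 was just above them. The means were 14.3 ± 0.820 and 21.5 ± 5.50 CPM (SD, n = 3 in each group), a fold change of 1.51 and a log2 fold change of 0.59 (standard error 0.20, 95% interval 0.16 to 1.02). The QL test gave p = 0.0114 before and p = 0.453 after adjustment, and the exact permutation test again gave its smallest p of 0.1. In the fits that each omitted 1 mouse, the log2 fold change lay between 0.40 without *Lztr1* R409C/+ replicate 2, where the QL test of edgeR gave an unadjusted p of 0.0822, and 0.77 without *Lztr1* R409C/+ replicate 3.

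*Emilin1* (ENSMUSG00000029163.10, chromosome 5, 31070717 to 31078622) encodes a glycoprotein at the interface of elastin and microfibrils. It was at 12.2, 17.3, and 18.0 CPM in WT and at 15.3, 26.9, and 32.1 CPM in *Lztr1* R409C/+ mice. *Lztr1* R409C/+ replicates 2 and 3 were above every WT mouse, and replicate 1 was within the WT range. The means were 15.8 ± 3.18 and 24.8 ± 8.57 CPM (SD, n = 3 in each group), a fold change of 1.56 and a log2 fold change of 0.64 (standard error 0.25, 95% interval 0.09 to 1.19). The QL test gave p = 0.0253 before and p = 0.520 after adjustment (two-sided exact permutation test, p = 0.3). With 1 mouse omitted at a time, the log2 fold change of *Emilin1* lay between 0.41 without *Lztr1* R409C/+ replicate 3 and 0.89 without *Lztr1* R409C/+ replicate 1. The unadjusted p of the QL test in edgeR was no longer under 0.05 without *Lztr1* R409C/+ replicate 3 (0.135), WT replicate 1 (0.101), or *Lztr1* R409C/+ replicate 2 (0.0877). Without the 2 mice with the smallest and largest mitochondrial shares, a choice made after the values were seen, the estimate was 0.997 (QL test, adjusted p = 0.306). These were the highest WT mouse and the lowest mutant for *Emilin1*.

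The fibulins bind tropoelastin, fibrillin, or basement membrane proteins, and their estimates lay near or below 0. *Fbln1* (ENSMUSG00000006369.15, chromosome 15, 85090150 to 85170737) was at 74.8, 59.3, and 63.9 CPM in WT and at 46.3, 56.4, and 64.5 CPM in *Lztr1* R409C/+ mice. *Fbln2* (ENSMUSG00000064080.13, chromosome 6, 91189437 to 91249522) was at 77.5, 75.7, and 88.5 CPM in WT and at 49.6, 93.8, and 108.3 CPM in *Lztr1* R409C/+ mice. In both genes *Lztr1* R409C/+ replicate 1 was the lowest mouse, and in *Fbln2* the other mutants were the highest. *Fbln5* (ENSMUSG00000021186.10, chromosome 12, 101712556 to 101785429), whose protein brings tropoelastin and a lysyl oxidase together, was at 18.3, 20.9, and 17.8 CPM in WT and at 15.2, 21.6, and 17.3 CPM in *Lztr1* R409C/+ mice. *Efemp1* (ENSMUSG00000020467.16, chromosome 11, 28803150 to 28876825), a fibulin gene expressed at a low level here, was at 5.87, 6.71, and 4.70 CPM in WT and at 6.32, 3.55, and 5.73 CPM in *Lztr1* R409C/+ mice. The genotypes overlapped for each of the 4 fibulins. The log2 fold changes were -0.24 for *Fbln1* (95% interval -0.61 to 0.13), 0.06 for *Fbln2* (-0.46 to 0.58), -0.08 for *Fbln5* (-0.46 to 0.31), and -0.15 for *Efemp1* (-0.70 to 0.41). Adjusted p-values of the QL test lay between 0.734 for *Fbln1* and 0.967 for *Fbln2*. Omission of single mice moved *Fbln1* between -0.36 without *Lztr1* R409C/+ replicate 3 and -0.13 without *Lztr1* R409C/+ replicate 1.

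*Ltbp4* (ENSMUSG00000040488.19, chromosome 7, 27004086 to 27037117) encodes a latent TGF-β binding protein that is needed for elastic fiber assembly and stores latent TGF-β in the matrix. It was at 393.8, 376.1, and 544.2 CPM in WT and at 220.0, 377.0, and 481.1 CPM in *Lztr1* R409C/+ mice. The lowest value was that of *Lztr1* R409C/+ replicate 1 and the highest that of WT replicate 3, the mice with the largest and smallest mitochondrial shares. Means were 438.0 ± 92.4 in WT and 359.4 ± 131.5 CPM in mutant mice (SD, n = 3 for both). The log2 fold change was -0.29 (95% interval -0.85 to 0.27, QL test, adjusted p = 0.802). With each mouse left out in turn, it lay between -0.55 without *Lztr1* R409C/+ replicate 3 and -0.04 without *Lztr1* R409C/+ replicate 1. Without both WT replicate 3 and *Lztr1* R409C/+ replicate 1, a choice made after the values were seen, it was 0.16 (QL test, adjusted p = 0.790). The sign thus changed when both mice were omitted, and in none of the fits that omitted 1 mouse. 3 lncRNA genes of GENCODE on the opposite strand share between 4.32% and 6.81% of the exonic bases of *Ltbp4*.

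**Figure D2:**
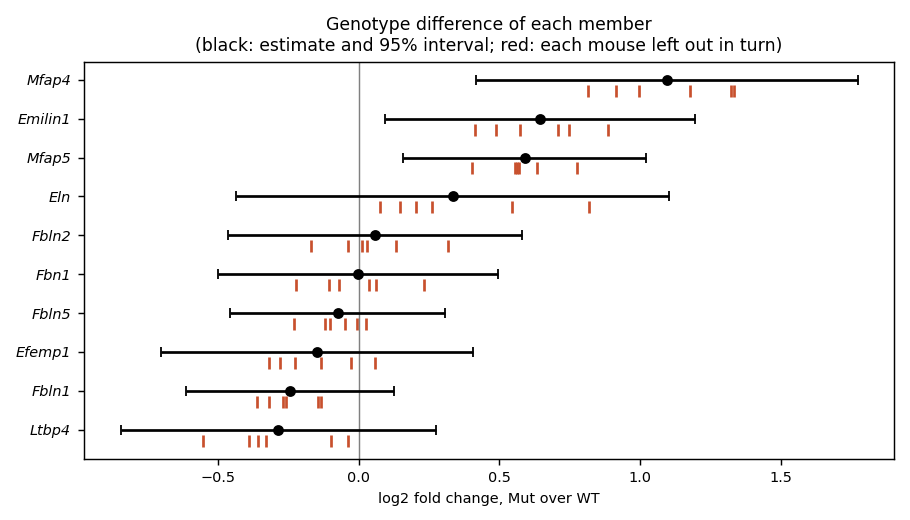
Log2 fold change of *Lztr1* R409C/+ (Mut) over WT mice for each gene (horizontal axis), with black points and bars for the estimate and its 95% interval from the quasi-likelihood fit of edgeR and red marks for the 6 fits in which 1 mouse was omitted. The intervals of *Mfap4*, *Emilin1*, and *Mfap5* lie above 0 before adjustment for the number of genes, and those of the other 7 genes include 0.

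To compare levels between genes, CPM was divided by exonic length in kilobases, the union of all exons in GENCODE. In WT mice, *Ltbp4* was the most abundant of the 10 at 58.1 ± 12.3 CPM per kilobase (SD, n = 3). It was followed by *Fbln1* at 14.4 ± 1.74, *Fbln2* at 11.5 ± 0.989, *Fbn1* at 7.27 ± 0.926, and *Eln* at 5.30 ± 2.68 CPM per kilobase (SD, n = 3 in each case). *Ltbp4* stood clear of the other genes, whereas *Fbn1* and *Eln* did not differ beyond their spread. Next came *Emilin1* at 2.84 ± 0.569, *Fbln5* at 2.61 ± 0.225, *Mfap4* at 2.19 ± 0.827, and *Mfap5* at 2.07 ± 0.119 CPM per kilobase, of which no neighbours differed beyond their spread. *Efemp1* was the lowest at 1.27 ± 0.223 CPM per kilobase. In *Lztr1* R409C/+ mice the first 5 genes had the same order, and *Mfap4* at 4.66 ± 1.46 CPM per kilobase was sixth by these lengths, against eighth in WT mice. With the length of the canonical transcript, a choice made after the values were seen, *Eln* came before *Fbn1* in both genotypes, with 10.95 ± 5.53 against 7.34 ± 0.936 CPM per kilobase in WT mice. By that length *Mfap4* was ninth in WT and seventh in *Lztr1* R409C/+ mice.

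The 10 genes did not all have the same order of mice, though part of the pattern was shared. *Lztr1* R409C/+ replicate 1 was below every WT mouse for 5 of them (*Fbn1*, *Fbln1*, *Fbln2*, *Fbln5*, and *Ltbp4*) beside 28.4% of all genes. *Lztr1* R409C/+ replicate 2 was above every WT mouse for 6 of the 10, beside 25.1% of all genes, and replicate 3 for 5, beside 31.7%. Within the mutants, replicate 1 was the lowest for every member but *Mfap5* and *Efemp1*. Replicate 1 was well above replicate 3 for *Mfap5*, and for *Efemp1* replicate 1 was the highest mutant and replicate 2 the lowest of all 6 mice. The coefficient of variation was larger in *Lztr1* R409C/+ than in WT mice for 8 of the 10 genes, all but *Eln* and *Mfap4*, beside 54.6% of all genes, and reached 36.6% for *Ltbp4*. The sign of the median log2 fold change of the 10 genes depended on single mice. It was -0.06 without *Lztr1* R409C/+ replicate 3, -0.04 without WT replicate 1, and 0.27 without *Lztr1* R409C/+ replicate 1, where the medians of all genes tested were 0.0031, 0.0202, and -0.00014. Without both *Lztr1* R409C/+ replicate 1 and WT replicate 3, a choice made after the values were seen, it was 0.35, beside 0.0083 for all genes. WT replicate 3 was the highest WT mouse for *Eln*, *Fbn1*, *Fbln2*, *Emilin1*, and *Ltbp4*, and *Lztr1* R409C/+ replicate 1 the lowest mutant for each of these. For these 5 genes the omission itself moves the estimate upward, so no conclusion is drawn from it. With both mice omitted, 7 of the 10 lay above 0, beside 50.9% of all genes. Of the 10, 4 (*Eln*, *Fbln2*, *Mfap4*, and *Emilin1*) had an unadjusted p under 0.05 in the QL test with a higher value in *Lztr1* R409C/+ mice, beside 5.92% of all genes. *Mfap5* was no longer among them (unadjusted p = 0.0608 in the QL test of edgeR). None passed the false discovery rate of 0.05. The part of the mitochondrial share in these values was not tested.

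**Figure D3:**
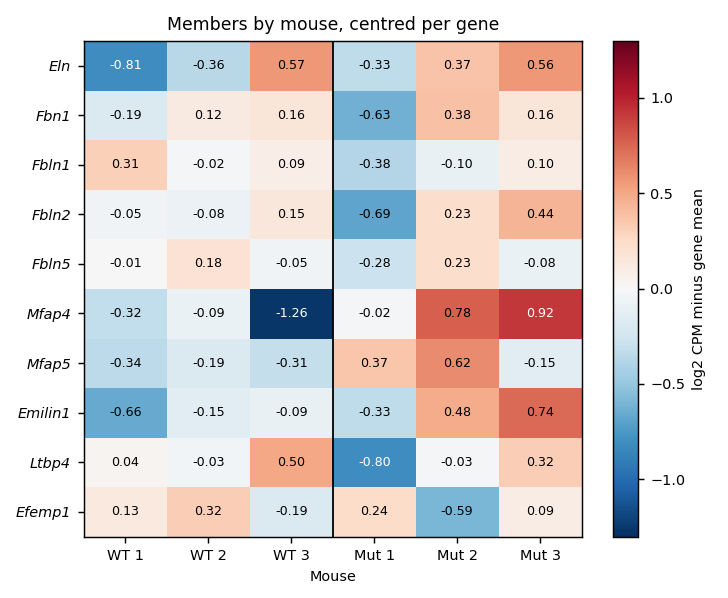
Log2 CPM of each gene (rows) in each mouse (columns; Mut, *Lztr1* R409C/+) after subtraction of the gene's mean over the 6 mice, with the value in each cell. *Lztr1* R409C/+ replicate 1 is the lowest mouse in 5 rows, and the lowest cell of all, -1.26, is *Mfap4* in WT replicate 3.

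The rest of the elastic fiber pathway was described by lists of 47 further genes, of which 44 were tested. None passed the false discovery rate of 0.05 by the QL test. DESeq2's Wald test and edgeR's exact test each called *Mmp12* and *Ctss*, both higher in *Lztr1* R409C/+ mice. Over all genes, these tests called 0.961% and 0.738% higher, respectively. 33 genes lay above 0 and 11 below, with a median log2 fold change of 0.23, beside 51.4% of all genes above 0 and a median of 0.01. At an unadjusted p under 0.05, 7 were higher and 1 was lower, beside 5.77% and 2.86% of all genes. Of the 7, 5 encode elastin-degrading enzymes. Among the 37 tested genes outside that group, 2 were higher at this level, beside 5.77% of all genes.

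All 5 lysyl oxidase genes, whose enzymes crosslink elastin and collagen, had log2 fold changes above 0, beside 51.4% of all genes. Their median was 0.39, and none was at an unadjusted p under 0.05. *Loxl2* was at 19.2 ± 2.45 CPM in WT and 25.9 ± 7.72 CPM in *Lztr1* R409C/+ mice (SD, n = 3 in each group). *Lox* was at 3.69, 4.91, and 4.75 CPM in WT and at 5.90, 5.94, and 5.73 CPM in *Lztr1* R409C/+ mice, without overlap (log2 fold change 0.40, 95% interval -0.06 to 0.85, QL test, adjusted p = 0.632). Of 9 further genes listed as fibrillins or microfibril-associated, not all of which need be parts of the microfibril, 8 lay above 0, beside 51.4% of all genes. *Adamts10*, whose protein binds fibrillin, was at 15.9 ± 0.562 and 20.6 ± 2.72 CPM (SD, n = 3 in each group), and *Thsd4*, which encodes a protein that promotes microfibril assembly, at 2.80 ± 0.749 and 3.97 ± 0.597 CPM. Every mutant was above every WT mouse for both genes, beside 8.30% of all genes, and their adjusted p-values in the QL test were 0.561 and 0.640.

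The paralogs of the members lay on both sides of 0. Among the other fibulins, *Efemp2*, whose protein is required for elastic fibers, had a log2 fold change of 0.42 (standard error 0.28) and *Hmcn2* of 0.06 (standard error 0.21). Among the other latent TGF-β binding proteins, *Ltbp1* had -0.23 (standard error 0.19) and *Ltbp3* 0.24 (standard error 0.21). In the EMILIN and multimerin family, *Mmrn2*, an endothelial member, had 0.37 (standard error 0.20) and *Mmrn1* -0.05 (standard error 0.24). Of 14 partners in the matrix and receptors, 8 were above 0 and 6 below, beside 51.4% of all genes above 0. *Bgn*, which encodes the proteoglycan biglycan, was at 164 ± 52.2 CPM in WT and 237 ± 31.9 CPM in *Lztr1* R409C/+ mice (SD, n = 3 in each group). *Itgav*, an integrin subunit that binds fibrillin and fibulin-5, was at 30.3 ± 4.55 and 23.0 ± 2.59 CPM. The groups overlapped for both genes, and both had an adjusted p of 0.554 in the QL test.

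Of the 7 tested genes for enzymes that degrade elastin, 6 lay above 0, beside 51.4% of all genes, and 5 of them were at an unadjusted p under 0.05, beside 5.77% of all genes. The median log2 fold change was 0.77. *Ctss*, which encodes cathepsin S of macrophages, was at 9.59, 8.20, and 13.5 CPM in WT and at 20.3, 18.3, and 18.3 CPM in *Lztr1* R409C/+ mice. *Mmp12*, the macrophage elastase gene, was near the detection floor at 0.272, 0.295, and 0.0950 CPM in WT and at 1.21, 0.951, and 0.676 CPM in *Lztr1* R409C/+ mice. Every mutant was above every WT mouse for both genes, as for 8.30% of all genes. The log2 fold changes were 0.86 for *Ctss* (standard error 0.20, adjusted p = 0.215) and 2.11 for *Mmp12* (standard error 0.56, adjusted p = 0.275) in the QL test. *Elane*, the neutrophil elastase gene, was at 0 counts in every mouse.

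**Figure D4:**
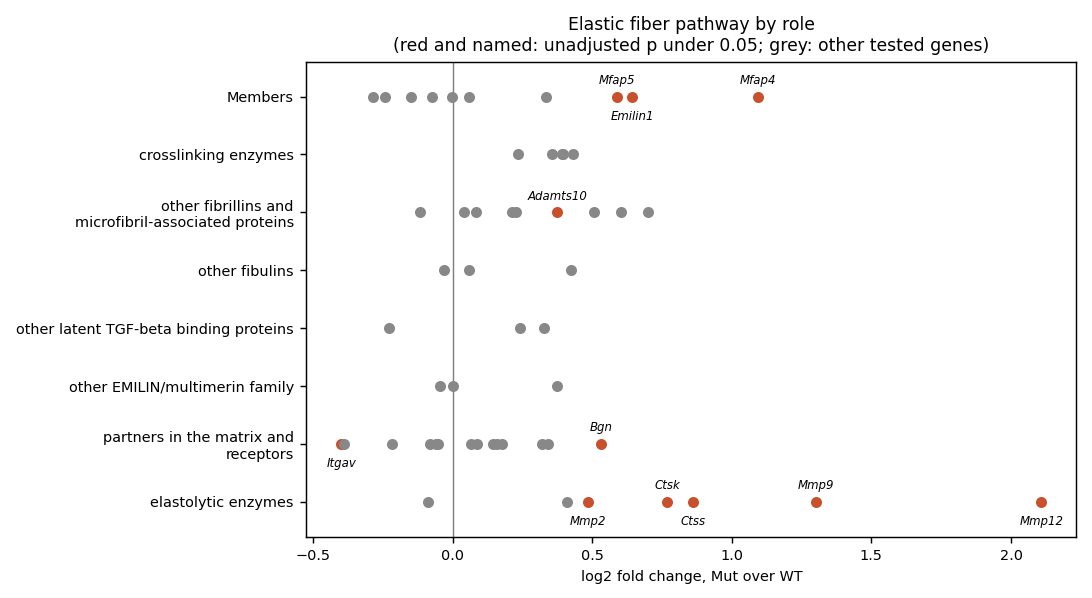
Log2 fold change of *Lztr1* R409C/+ (Mut) over WT mice for the 10 members and for the 44 other tested genes of the pathway (horizontal axis), grouped by role, with genes at an unadjusted p under 0.05 in red and named. None of the 54 genes shown passed adjustment over all genes in the QL test (DESeq2's Wald test called *Mfap4*, *Mmp12*, and *Ctss*, and edgeR's exact test *Mmp12* and *Ctss*), and the elastolytic enzymes hold 5 of the 8 red points outside the members.

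Marker lists were examined for the cells that make or remodel the elastic matrix. No marker in any of these lists passed the false discovery rate of 0.05 by the QL test, and the smallest adjusted p was 0.0985, for the macrophage gene *C1qa*. The counts of markers above 0 given below stand beside 51.4% of all genes tested. Macrophage markers were above 0 in 6 of 6 genes and summed to between 77.1 and 89.8 CPM in WT and between 128.7 and 144.7 CPM in *Lztr1* R409C/+ mice, without overlap. Of the 6, 5 were higher at an unadjusted p under 0.05 in the QL test, beside 5.77% of all genes. For 5 of them every mutant was above every WT mouse, beside 8.30% of all genes. Fibroblast markers were above 0 in 5 of 9 genes and overlapped in sum, with 1185 to 1681 CPM in WT and 981.3 to 1636 CPM in *Lztr1* R409C/+ mice. Within that list *Lum*, *Dpt*, and *Tcf21* were above every WT mouse in every mutant, as 8.30% of all genes were, whereas *Col1a1*, *Col1a2*, and *Col3a1* overlapped. Markers of adventitial fibroblasts, a type known to express *Mfap5*, were above 0 in 5 of 6 tested genes, with sums of 132.9 to 158.6 CPM in WT and 154.0 to 188.2 CPM in *Lztr1* R409C/+ mice. They did not move together, as *Dpp4* (2.41 and 5.21 CPM) and *Clec3b* (13.3 and 19.8 CPM) did not overlap, with adjusted p-values of 0.215 and 0.498, and *Scara5* had a log2 fold change of -0.07.

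Vascular smooth muscle markers were above 0 in 3 of 7 genes, at 175.5 to 207.2 CPM in WT and 151.5 to 228.0 CPM in *Lztr1* R409C/+ mice. *Acta2* (log2 fold change -0.13), *Smtn* (0.08), *Mylk* (0.08), *Cnn1* (0.32), and *Lmod1* (-0.12) overlapped between the genotypes. *Myh11* and *Tagln* did not overlap, with the *Lztr1* R409C/+ mice below the WT mice, as for 7.23% of all genes, and log2 fold changes of -0.71 and -0.65 (adjusted p = 0.438 and 0.470). Markers of the mesothelium, the outer lining of the heart, were above 0 in 4 of 6 genes and low in all mice, with sums of 4.82 to 5.93 CPM in WT and 5.78 to 10.6 CPM in *Lztr1* R409C/+ mice and a median log2 fold change of 1.65. The sum in WT mice was mostly *Wt1*, at 4.45 CPM in WT and 3.93 CPM in *Lztr1* R409C/+ mice on average. *Upk3b* (0.388 and 1.76 CPM) and *Lrrn4* (0.119 and 0.620 CPM) did not overlap, as for 8.30% of all genes, with adjusted p-values of 0.251 and 0.326. *Msln* (0.291 and 0.887 CPM) was the remaining gene of the 3 higher at an unadjusted p under 0.05, beside 5.77% of all genes. Valve markers were above 0 in 2 of 3 tested genes, at 11.1 to 12.3 CPM in WT and 11.1 to 21.9 CPM in *Lztr1* R409C/+ mice, and *Tnmd* of this list was at 0 in every mouse. Among them *Comp* was at 1.36 and 3.89 CPM without overlap (adjusted p = 0.307), and *Prg4* at 6.39 and 5.23 CPM with overlap. Endothelial markers, at 557.5 to 721.0 and 473.1 to 772.4 CPM, and pericyte markers, at 910.3 to 1201 and 907.0 to 1123 CPM, overlapped between WT and *Lztr1* R409C/+ mice. Erythroid markers were above 0 in 5 of 5 genes, with a median log2 fold change of 0.97 and 3 of 5 at an unadjusted p under 0.05, beside 5.77% of all genes. They summed to between 578.8 and 1479 CPM in WT and between 1042 and 2625 CPM in *Lztr1* R409C/+ mice, with overlap. Of the adipocyte markers, 0 of 5 passed the filter on low counts. The part of any of these cell types in the values of *Mfap4*, *Mfap5*, *Emilin1*, and the elastolytic enzymes was not tested. In whole LV tissue, more cells of a type and more RNA per cell cannot be told apart.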

How the data were processed

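Per the labels and the study's methods, the authors trimmed reads with Trim Galore, aligned them to GRCm39 with HISAT2, excluded rRNA, and used StringTie and edgeR, with the versions, the annotation release, and the use of strand not given in the sources used here. They deposited whole-number counts per gene without normalization, 1 column per mouse. A further deposited table holds the authors' own log2 fold changes, average log2 CPM, and p-values, and only its gene names were used.

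The deposited counts were compared between genotypes with edgeR 4.0.16 under R 4.3.3 (filterByExpr, TMM, robust quasi-likelihood test, Benjamini-Hochberg adjustment over 17212 genes, two-sided, threshold 0.05). Standard errors were derived from the F statistic, and 95% intervals from it and the total degrees of freedom. The biological coefficient of variation, common to all genes, was 26.1%. Of 56923 identifiers, 56236 were in GENCODE, which gave positions and lengths. The members and gene lists were chosen with earlier results of these data known. Named genes are the members, *Lztr1*, and the 2 genes of each pathway list with the smallest unadjusted p. Genes that overlap a member, and *Elane* for its count of 0, were named in addition after their values were seen. Single marker genes were named only where markers of a list were at or near 0 or did not move together, and *C1qa* was named for its p after the values were seen.

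The alternatives were DESeq2 1.42.0 (size factors and Wald test), edgeR's exact test, other normalizations, filters, and thresholds, removal of mitochondrially encoded genes, a gene length correction, a replicate block, and the omission of each mouse. The omission of 2 mice by mitochondrial share, the length correction combined with removal of mitochondrially encoded genes, the count of members at an unadjusted p under 0.05 across settings, and canonical lengths were chosen after seeing the data. The scripts were tested on simulated data. Protein sequences were not used here.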

Additional observations from a re-analysis of the deposited data

How the results depend on the processing

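With 3 mice in each group, differences of the size of the members' spread may not be resolved, which was not tested. The limits below concern direction and calls. Over all genes, the numbers higher and lower, 6 and 1 in edgeR's quasi-likelihood test, became 15 and 6 with library size only, 143 and 15 by DESeq2's Wald test, 127 and 13 by edgeR's exact test, and 993 and 493 at an unadjusted p under 0.05. Without a filter on low counts 19 were higher, at a false discovery rate of 0.1 15 were higher, and with at least 10 counts in every mouse 0 were lower. With each mouse left out, 1 to 3 were higher and 1 to 2 lower, and without the mice with the smallest and largest mitochondrial shares 0 were higher. With the replicate block, 0 genes were higher. The replicate numbers come from the titles, no source says that they mark a litter or batch, and deviations of same-numbered mice correlated across genes at -0.0013, 0.022, and -0.057, so that the block is given here only.

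Of the members, 1 was called by DESeq2's Wald test and 3 were higher at an unadjusted p under 0.05. That number of 3 was 1 with library size only, between 1 (without *Lztr1* R409C/+ replicate 2) and 4 (without WT replicate 3) with each mouse left out, and 3 with the replicate block. Of the pathway lists, 2 genes were called by DESeq2's Wald test and 2 by edgeR's exact test, and 7 were higher and 1 lower at an unadjusted p under 0.05. *Mfap4*, *Mfap5*, *Emilin1*, *Eln*, and *Fbln1* kept their direction in all 18 alternatives. *Fbn1* changed sign with upper quartile normalization (0.0351), at least 10 counts in every mouse (0.0045), the gene length correction (0.0669, and 0.0671 with mitochondrially encoded genes removed too), without the 2 mice named above (0.30), and over the range -0.22 to 0.23 with each mouse left out. *Fbln2* did so with library size only (-0.0681), the replicate block (-0.0115), and over -0.17 to 0.32 with each mouse left out. *Fbln5* ranged from -0.23 to 0.0257 and *Efemp1* from -0.32 to 0.0583 with each mouse left out. *Ltbp4* ranged from -0.55 to -0.04 with each mouse left out and was at 0.16 without the 2 mice. *Fbln1* ranged from -0.36 to -0.13 with each mouse left out. The median of all genes tested lay between -0.14, with library size only, and 0.06. The median of the members, 0.03 with all mice, was -0.10 with library size only and -0.03 with the replicate block, and ranged from -0.06 to 0.27 with each mouse left out. The cause of these changes was not tested.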
